A study of Mus musculus with 69 samples.

Results

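Of 110391 autosomal H3K4me1 regions in wild-type haematopoietic progenitor cells (HPCs), 9849 overlapped a peak in cells heterozygous for Kmt2c and no peak in Kmt2c-knockout cells. They were 8.92% of the wild-type regions (95% Wilson interval 8.76 to 9.09). All lists of the series together held 164451 merged autosomal regions. The members were chosen by the presence and absence of peaks in 3 deposited lists, so their H3K4me1 in HPCs is given as a description. Position, H3K27ac and the lists of haematopoietic stem cells (HSCs) were not used in that choice. They are not free of it, because the members were narrower (median 412 bp) than regions in all 3 lists (853 bp). Overlap with a peak or a start site depends on width, and the part of width in the shares below was not tested. The members are called knockout-missing regions here, because absence from a peak list is a threshold result and no read numbers were used.

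Kmt2c encodes MLL3, the catalytic subunit of a COMPASS-like complex that places a single methyl group on lysine 4 of histone H3 (H3K4me1) at enhancers and the flanks of promoters, work that it shares with its paralogue MLL4. H3K27ac, placed by the acetyltransferases p300 and CBP, marks those enhancers and promoters that are active. HPCs are the dividing descendants of HSCs from which the myeloid, erythroid and lymphoid lineages arise.

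The H3K4me1 lists of HPCs came from untreated mice aged 8 weeks, with 3 libraries per genotype: wild type, heterozygous (Kmt2c f/+; Vav-Cre) and knockout (Kmt2c f/f; Vav-Cre). Vav-Cre deletes the conditional allele in blood-forming cells. The labels name no Cre for the wild type, so Cre and Kmt2c dose cannot be told apart against it, whereas heterozygote and knockout both carry the transgene. The H3K27ac lists of HPCs came from other wild-type and knockout (Kmt2c f/f; Vav-Cre) mice, aged 8 to 10 weeks, 4 libraries to a group, that received either PBS or the inflammatory cytokine interleukin-1 (IL-1, 0.5 µg daily) for 3 days. HSC lists came from mice aged 8 weeks (the same 3 genotypes, H3K4me1, 3 libraries each) and from wild-type and knockout mice aged 16 weeks after 3 rounds, 3 weeks apart, of PBS or of 150 mg/kg of the cytotoxic drug 5-fluorouracil (5FU).

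Each group had 1 pooled peak list, so there was no replicate error and no test between genotypes. Intervals below cover counting error only, and neighbouring regions are not independent. The wild-type, heterozygous and knockout HPC lists held 110391, 118236 and 117783 autosomal peaks over 102, 101 and 103 Mb. The H3K27ac lists of HPCs held 36426 to 40754 peaks, and the knockout IL-1 list covered less (36.4 Mb) than the other 3 (42.5 to 45.4 Mb). The label HPC was checked against marker genes. In the wild-type PBS list, H3K27ac lay within 1 kb of an end of 5 of 5 general blood genes, 8 of 10 genes of multipotent and myeloid progenitors, 6 of 10 HSC genes, 3 of 7 genes of mature B, T and NK cells, 1 of 3 erythroid genes, 1 of 5 genes of stroma and endothelium and 0 of 6 genes of other tissues. In the knockout PBS list the counts were 5, 9, 7, 3, 1, 1 and 0.

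The sequences of 4 promoters at which a knockout-missing region overlapped the 300 bases around a start site (250 before, 50 after) are shown because they belong to the strongest such regions and show how the regions lie against the start. They are from RefSeq (GRCm38.p6) and read 5′ to 3′ on the gene's strand. Capitals mark bases inside the wild-type H3K4me1 region.
Gbp3, chr3:142559794-142560093, plus strand: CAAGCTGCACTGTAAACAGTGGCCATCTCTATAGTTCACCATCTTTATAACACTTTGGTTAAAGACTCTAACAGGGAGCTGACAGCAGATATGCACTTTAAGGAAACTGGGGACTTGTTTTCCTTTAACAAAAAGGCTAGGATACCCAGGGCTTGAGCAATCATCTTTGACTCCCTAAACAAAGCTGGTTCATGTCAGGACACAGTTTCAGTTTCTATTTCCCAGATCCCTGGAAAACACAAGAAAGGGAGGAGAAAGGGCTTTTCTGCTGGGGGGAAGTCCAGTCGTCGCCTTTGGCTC
Npdc1, chr2:25402800-25403099, plus strand: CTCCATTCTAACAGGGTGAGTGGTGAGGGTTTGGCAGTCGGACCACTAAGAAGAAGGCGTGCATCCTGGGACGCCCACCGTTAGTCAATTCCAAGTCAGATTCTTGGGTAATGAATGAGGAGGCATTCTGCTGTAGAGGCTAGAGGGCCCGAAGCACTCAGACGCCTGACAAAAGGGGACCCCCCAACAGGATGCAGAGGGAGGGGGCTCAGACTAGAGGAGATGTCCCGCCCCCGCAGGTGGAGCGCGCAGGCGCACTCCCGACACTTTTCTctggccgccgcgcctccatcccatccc
Efemp2, chr19:5474440-5474739, plus strand: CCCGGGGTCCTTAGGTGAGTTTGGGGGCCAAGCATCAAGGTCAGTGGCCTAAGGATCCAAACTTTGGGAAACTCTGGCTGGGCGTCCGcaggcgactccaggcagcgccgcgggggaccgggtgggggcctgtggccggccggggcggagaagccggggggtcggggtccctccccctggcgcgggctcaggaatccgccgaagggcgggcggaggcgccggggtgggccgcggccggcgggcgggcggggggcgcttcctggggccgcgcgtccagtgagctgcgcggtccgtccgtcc
Dsn1, chr2:157007026-157007325, minus strand: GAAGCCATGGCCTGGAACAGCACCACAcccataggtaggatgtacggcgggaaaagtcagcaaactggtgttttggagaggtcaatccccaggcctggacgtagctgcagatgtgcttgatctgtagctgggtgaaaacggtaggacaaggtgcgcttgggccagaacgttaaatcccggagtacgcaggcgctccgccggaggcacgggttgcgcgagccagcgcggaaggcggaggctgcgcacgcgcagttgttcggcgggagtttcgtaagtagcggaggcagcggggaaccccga
The region at Gbp3, a guanylate-binding protein induced by interferon, covered the whole window, which holds 2 CpG dinucleotides. At Efemp2, which encodes the matrix protein fibulin-4, the region ended 212 bases before the end of the window: 3 CpGs lay inside it and 32 outside. At Dsn1, a kinetochore subunit, 0 CpGs lay in the 27 covered bases and 26 in the other 273. At Npdc1 the region covered 273 bases with 12 of the 15 CpGs.

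Most knockout-missing regions were weak and narrow in the wild-type list itself. Their median width was 412 bp, their median fold enrichment 2.91 and their median −log10 p 8.18, all as the authors' peak caller gave them. The 76687 regions found in all 3 HPC lists had medians of 853 bp, 3.55 and 12.5. When the wild-type list was divided by −log10 p into 4 bins of equal size, the knockout-missing regions numbered 4077 in the weakest bin (−log10 p of 7.50 or less), 3547 and 1885 in the middle bins and 340 in the strongest (15.2 or more). Thus 14.8% of the weakest bin and 1.23% of the strongest were knockout-missing.

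The class that exchanges heterozygote and knockout, found in wild type and knockout and missing from the heterozygous list, was nearly as large. It held 9299 regions, 8.42% of the wild-type list (8.26 to 8.59), with a median width of 392 bp, a median fold of 2.85 and a median −log10 p of 7.76. By strength bin it held 4134, 3297, 1608 and 260 regions. A further 14556 regions were missing from both lists. The knockout-missing regions exceeded the heterozygote-missing regions by 340 to 260 in the strongest bin and fell short of them, 4077 to 4134, in the weakest. Since the heterozygous list, from cells with 1 intact copy, missed nearly as many wild-type regions as the knockout list, the heterozygote-missing class is set beside the results that follow.

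**Figure D1:**
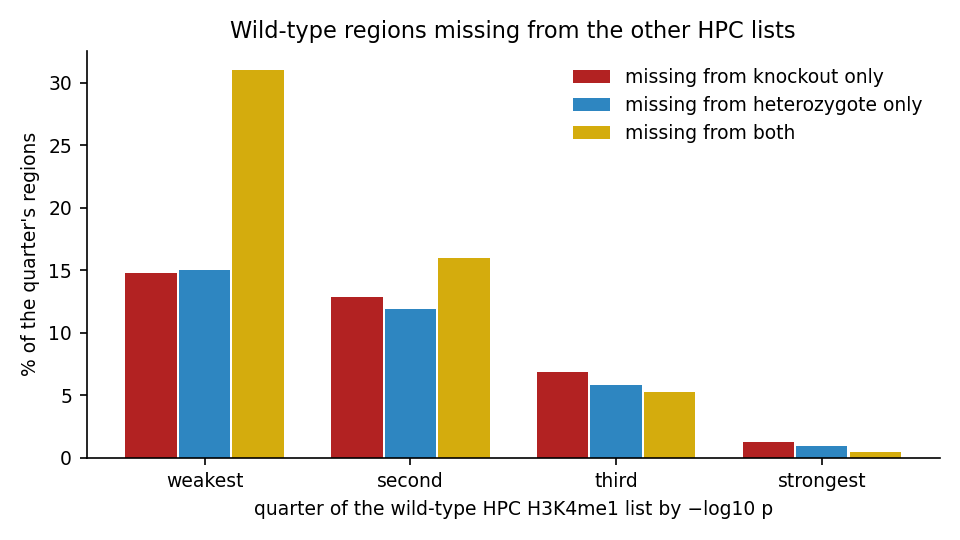
Percentage of wild-type HPC H3K4me1 regions (y axis) in each strength bin, which holds 25% of the list by −log10 p (x axis), that were missing from the knockout list only (red), from the heterozygous list only (blue) or from both (yellow). Red and blue bars are of like height in every bin, 14.8% and 15.0% in the weakest and 1.23% and 0.942% in the strongest.

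Many knockout-missing regions had a knockout peak close by. The median gap to the nearest knockout peak was 537 bp, and 4770 regions (48.4%) had one within 500 bp. Among heterozygote-missing regions the median gap to the nearest heterozygous peak was 483 bp, with 50.8% within 500 bp. At the edge of the rule, 93 knockout-missing regions lay within 10 bp of a knockout peak, while 131 regions of all 3 lists were kept there by an overlap of at most 10 bp. Just inside it were regions in Nfyb (wild-type −log10 p 6.61), in Ssbp2 (9.86) and 17006 bp from Ybx3 (13.3), each touching a knockout peak without sharing a base. Just outside it were regions in Ipo9 (17.5), Tnip1 (10.4) and Itsn2 (10.4), which shared 1 bp with a knockout peak. Requiring no knockout peak within 500 bp left 5079 regions, and the same requirement for the heterozygous list left 4577 heterozygote-missing regions.

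The 20 strongest knockout-missing regions had wild-type −log10 p from 22.2 to 32.0, and the peaks they overlapped in the heterozygous list had from 6.17 to 24.9 (median 9.81). They were picked by the wild-type value, a choice that favours lower heterozygous values. Lists may also differ in depth, so these pairs of values do not measure a loss. Of these 20, 15 lay inside a protein-coding gene, 6 lay within 1 kb of a gene end and 14 had a knockout peak within 500 bp. Of the 340 knockout-missing regions in the strongest bin, 53.8% had a knockout peak that close. In the H3K27ac lists of HPCs, 10 of the 20 had no peak in any of the 4 lists and 7 had one in all 4. Over all wild-type regions, of any strength, 60.2% had none and 22.4% had one in all 4. H3K27ac was more common at strong regions. In wild-type PBS HPCs it was listed at 10 of the 20. Of regions in all 3 lists it was at 64.2% in the strongest bin and 40.6% over all bins. In HSCs, H3K4me1 was listed at 17 of the 20 in wild type, at 14 in the heterozygote and at 17 in knockout. A peak in these HSC lists was common, at 66.0%, 71.7% and 74.4% of all wild-type HPC regions. Those shares are over regions of any strength, so they are no background of like strength for the 20.

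The strongest of all lay 25842 bp before the coordinates of Pde4d, which encodes a cAMP phosphodiesterase (chr13:108627488-108628335). It had a 5.86-fold enrichment and −log10 p of 32.0 in wild-type HPCs and 7.10 in the heterozygous list, and the nearest knockout peak lay 9 bp away. Its H3K27ac lists were empty, and in 8-week HSCs it had peaks in wild type (5.33) and heterozygote (5.92) and none in knockout, while both 16-week PBS HSC lists had one (4.63 in wild type and 3.53 in knockout). The next lay in Pax7, a transcription factor of muscle stem cells (chr4:139812997-139814662, −log10 p 29.8 in wild type and 9.99 in the heterozygote). No knockout peak lay within 5328 bp, H3K27ac was absent from all 4 lists, and all 3 HSC lists had a peak (10.1, 5.52 and 7.07).

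Regions with H3K27ac in every HPC list stood among the strongest too. A region in Cry1, a repressor of the circadian clock (chr10:85183949-85184402), had −log10 p of 22.5 in wild type and 14.9 in the heterozygote. It lay 652 bp from a gene end and overlapped strong H3K27ac peaks in wild-type PBS (114), knockout PBS (94.7), wild-type IL-1 (129) and knockout IL-1 (64.7) HPCs, with no H3K4me1 in any HSC list. The region over the start of Gbp3 (22.2 in wild type, 17.3 in the heterozygote) had H3K27ac of 37.7, 48.5, 28.1 and 17.9 in the same 4 lists. Both regions therefore carried acetylation in knockout HPCs although the knockout H3K4me1 list had no peak on them. It did have peaks close by, 118 bp from the region in Cry1 and 807 bp from the one at Gbp3.

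**Figure D2:**
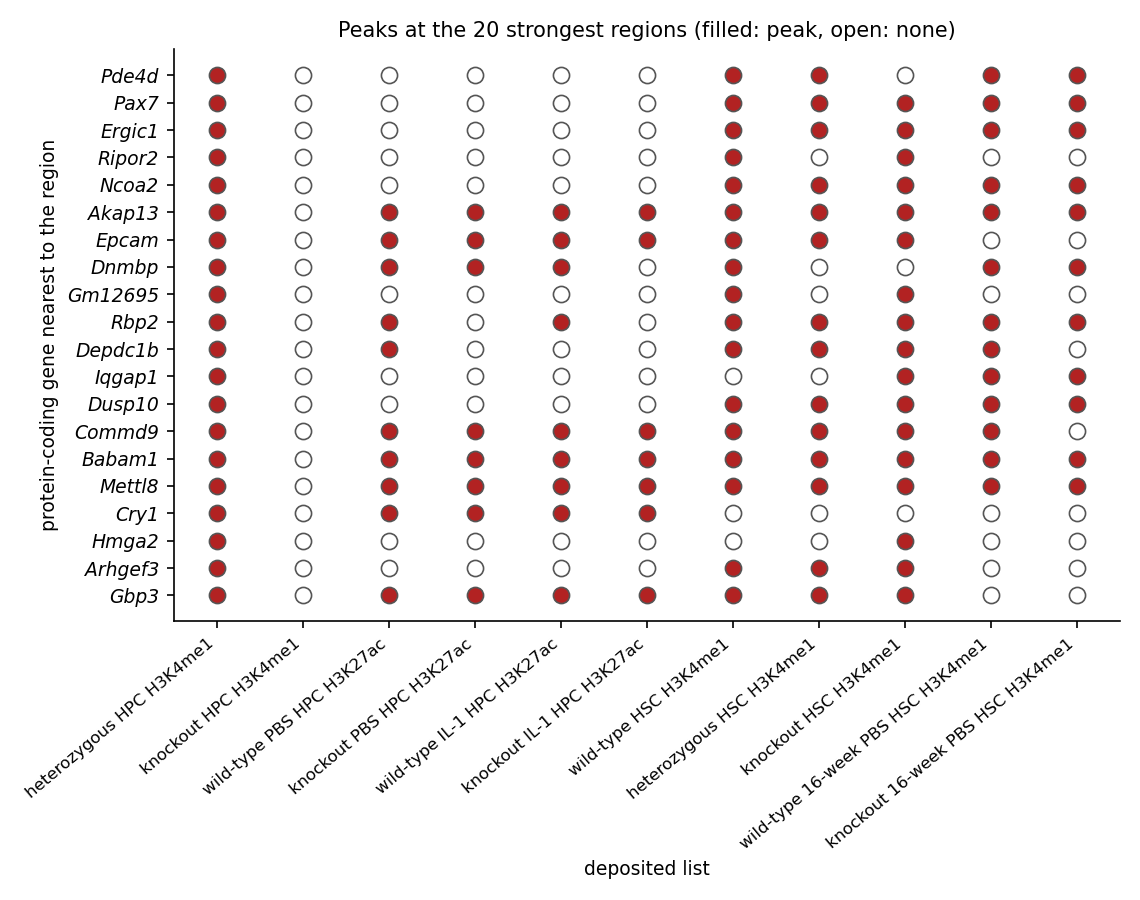
Presence of a peak (filled circle) or none (open circle) in 11 deposited lists (x axis) at the 20 strongest knockout-missing regions (y axis, nearest protein-coding gene, strongest at the top). The knockout HPC H3K4me1 column is empty and the heterozygous one full by the choice of regions, 10 rows are open in all 4 H3K27ac columns, and 17 are filled in the knockout HSC column.

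Knockout-missing regions lay near gene ends about as often as other wild-type regions, and more often than regions of all 3 lists of like strength in 3 of the 4 bins. Within 1 kb of the lower or upper end of an annotated gene lay 2276 of 9849 (23.1%, 22.3 to 24.0), against 23.0% of all wild-type regions, 23.8% of regions in all 3 lists, 21.1% of heterozygote-missing regions and 20.2% of regions missing from both lists. The difference from regions in all 3 lists was −0.702 percentage points (Newcombe interval −1.58 to 0.193) and from heterozygote-missing regions 2.02 points (0.845 to 3.19). With protein-coding genes alone the shares were 17.0%, 17.0% and 15.4%. Knockout-missing regions lay inside protein-coding genes less often, 59.2% against 65.6% of regions in all 3 lists and 63.2% of heterozygote-missing regions, and 11.3% lay over 50 kb from one, against 9.60% and 10.2%.

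The share near gene ends grew with strength in every class. It was 20.3%, 22.3%, 28.2% and 37.1% of knockout-missing regions from the weakest to the strongest bin, and 18.4%, 21.2%, 25.5% and 27.1% of all wild-type regions. Against regions in all 3 lists, knockout-missing regions were 2.64 points higher in the weakest bin (1.23 to 4.09), 1.36 (−0.121 to 2.89) and 3.11 points (1.05 to 5.26) in the middle bins. In the strongest bin this was 126 of 340 regions, 10.1 points above regions in all 3 lists (27%, interval of the difference 5.09 to 15.4) and 10.1 points above the 260 heterozygote-missing regions (26.9%, interval 2.58 to 17.4). It was 2.44 points above the 130 regions missing from both lists (34.6%, interval of the difference −7.41 to 11.7), so the higher share was not shown to be particular to the knockout-missing regions. In the weakest bin the difference from the heterozygote-missing class was 1.76 points (0.0439 to 3.47), and in the middle bins it was 1.04 (−0.920 to 2.99) and 1.86 points (−1.10 to 4.81), with intervals that held 0.

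In the strongest bin the excess lay near start sites. Start sites were read from a promoter table, and chromosome 18 (332 knockout-missing regions) was not used here. In that bin 93 of 327 knockout-missing regions (28.4%) lay within 1 kb of a start site, against 19.0% of regions in all 3 lists and 20.6% of heterozygote-missing regions (difference from the latter 7.81 points, 0.686 to 14.6). Regions missing from both had 23.0% (difference 5.42 points, −3.88 to 13.7). A start site was covered by 9 of them (2.75%, against 4.64% of regions in all 3 lists). Up to 250 bp from a start lay 22, from there up to 500 bp lay 24 and from there up to 1 kb lay 38. Near a downstream end and away from a start lay 9 (2.75%, against 4.82% of regions in all 3 lists and 5.16% of heterozygote-missing regions). Over all strengths the position beside rather than over the start was also seen: 1.95% covered a start site and 3.44% lay within 250 bp of one without covering it. The shares were 3.13% and 2.50% of regions in all 3 lists, 1.75% and 2.76% of heterozygote-missing regions and 1.61% and 3.52% of regions missing from both. Regions in all 3 lists were wider, and the part of width in this was not tested.

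**Figure D3:**
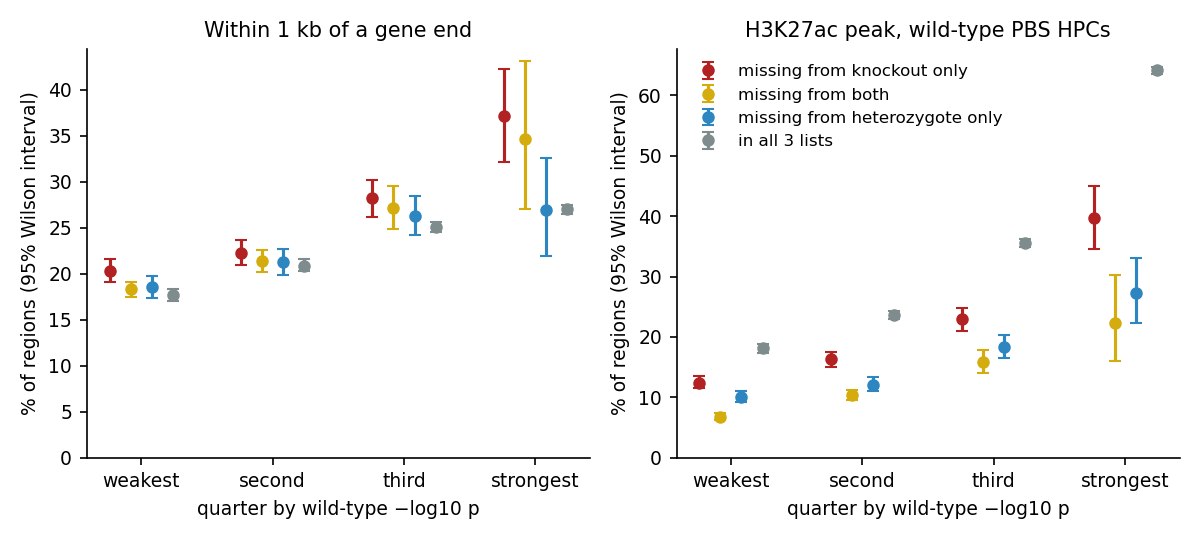
Percentage of regions within 1 kb of a gene end (left) and with an H3K27ac peak in wild-type PBS HPCs (right) by strength bin of wild-type −log10 p, for regions missing from the knockout list only (red), from both (yellow), from the heterozygous list only (blue) and in all 3 lists (grey); bars are 95% Wilson intervals. In the strongest bin red and yellow (37.1% and 34.6%, with overlapping intervals) lie above blue and grey (26.9% and 27%) near gene ends, and for H3K27ac the red points lie below grey and above blue and yellow in every bin.

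The promoters that knockout-missing regions overlapped were rich in CpG. They numbered 449 windows of 413 genes, with a median of 14.0 CpGs and 58.7% G or C per 300 bases, against 7 and 54.0% for the 3905 windows overlapped by regions of all 3 lists and 11 and 55.3% for the 345 of the heterozygote-missing class. The 653 windows of regions missing from both lists were as rich, with 15.0 and 58.0%. The median over all 31396 windows was 7 CpGs. As in Efemp2 and Dsn1 above, the region usually stopped short of the densest bases: in the 351 windows that were covered in part, the covered bases held 3.80 CpGs per 100 and the uncovered bases 6.73, and 253 were covered from the upstream end. The same split was 3.23 and 5.80 for regions of all 3 lists 3.39 and 5.97 for heterozygote-missing regions and 4.15 and 6.47 for regions missing from both, so each class had fewer CpGs in the covered bases.

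**Figure D4:**
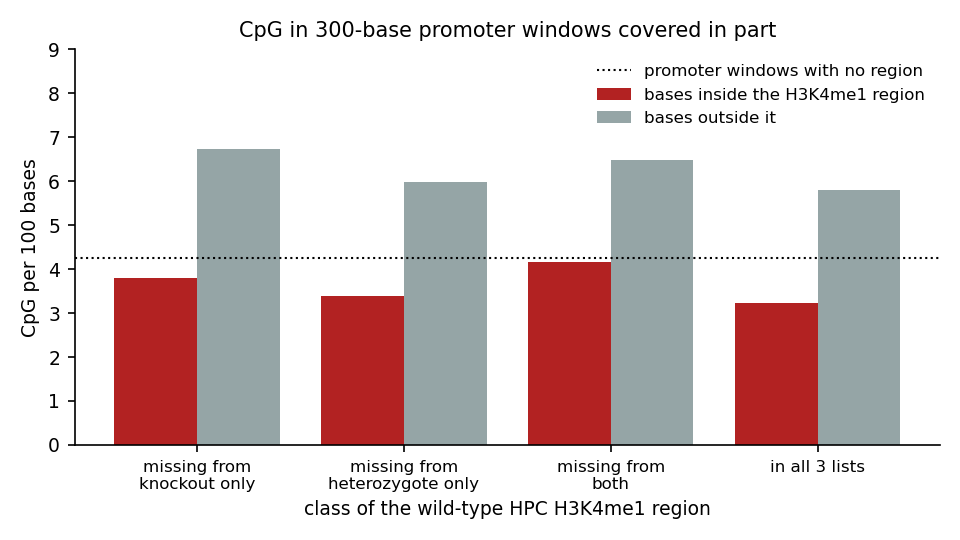
CpG dinucleotides per 100 bases (y axis) inside (red) and outside (grey) the H3K4me1 region in 300-base promoter windows that a region covered in part, by class of region (x axis); the dotted line is the mean of windows with no region (4.26). In every class the uncovered bases hold more CpG, 6.73 against 3.80 for regions missing from the knockout list only.

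Of 10 short motifs searched on both strands of the windows, the Sp and Klf box GGGCGG was found in 51.2% of windows of knockout-missing regions (46.6 to 55.8), against 36.0% of all windows, 36.3% of those of regions in all 3 lists 47.2% of those of heterozygote-missing regions (42.0 to 52.5) and 50.5% of those of regions missing from both (46.7 to 54.4). The motif holds only G and C, of which these windows had more, and the part of base content in the difference was not tested. The PU.1 core GAGGAAG was found in 15.1% (13.4% of all windows), the Runx core TGTGGT in 17.8% (16.7%), the GATA core AGATAA in 8.02% (11.2%), the NF-Y box CCAAT in 37.6% (37.3%) and the E-box CACGTG in 9.80% (7.14%). The remaining motifs were the NRF1 core GCGCATG in 3.56% (3.90%), the YY1 core AAGATGG in 5.35% (6.38%), the CRE TGACGTC in 3.12% (3.25%) and the AP-1 site TGANTCA in 7.57% (7.84%). These matches describe letters in a window and not bound sites.

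Fewer knockout-missing regions than kept regions carried H3K27ac. In wild-type PBS HPCs, 1651 of 9849 overlapped an H3K27ac peak (16.8%, 16.0 to 17.5), against 31.9% of all wild-type regions, 40.6% of regions in all 3 lists, 12.7% of heterozygote-missing regions (difference 4.02 points, 3.02 to 5.02) and 8.93% of regions missing from both (difference 7.83 points, 6.97 to 8.71). The share went up with H3K4me1 strength, from 12.4% through 16.3% and 22.9% to 39.7% in the strongest bin, where regions in all 3 lists had 64.2%, heterozygote-missing regions 27.3% and regions missing from both 22.3%. In knockout PBS HPCs the share of knockout-missing regions with H3K27ac was 16.2%, in wild-type IL-1 HPCs 16.4% and in knockout IL-1 HPCs 14.6%. The drop in the last list was shared by regions in all 3 lists (35.7%, from 40.1% in wild-type IL-1) and heterozygote-missing regions (11.5%, from 13.0%), and that list covered the fewest bases. In all 4 lists 1052 knockout-missing regions were acetylated (10.7%) and in none 7615 (77.3%). All wild-type regions had 22.4% and 60.2%, and heterozygote-missing regions 8.32% and 81.8%. Within 1 kb of a gene end 34.3% of knockout-missing regions were acetylated in wild-type PBS HPCs, and 11.5% farther away. Over all wild-type regions these shares were 48.9% and 26.8%, and in heterozygote-missing regions 31.4% and 7.75%.

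Under PBS, knockout-missing regions lacked H3K27ac in the knockout list about as often as heterozygote-missing regions did. Of 1651 regions with H3K27ac in wild-type PBS HPCs, 366 had none in knockout PBS HPCs (22.2%, 20.2 to 24.2), while of 1596 with H3K27ac in knockout PBS HPCs, 311 had none in wild type (19.5%, 17.6 to 21.5). Over all wild-type regions these shares were 16.9% and 13.5%, in heterozygote-missing regions 21.3% and 22.0%, and in regions missing from both 19.2% and 20.3%. The difference between both missing classes in the first share was 0.903 points (−2.20 to 3.95). Of the 677 knockout-missing regions acetylated in 1 of both PBS lists, 54.1% (50.3 to 57.8) were in the wild-type list, against 48.9% (44.6 to 53.2) of 515 heterozygote-missing and 57.8% (56.8 to 58.8) of 8795 regions of all 3 lists. With both PBS lists limited to equal covered bases, the shares of knockout-missing regions turned to 16.6% missing from knockout and 22.7% missing from wild type. The same turn was seen in heterozygote-missing regions (15.4% and 24.9%) and in regions of all 3 lists (11.6% and 16.9%).

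Under IL-1, 391 of 1618 acetylated knockout-missing regions had no H3K27ac in the knockout list (24.2%, 22.1 to 26.3), against 19.6% of all wild-type regions, 25.2% of heterozygote-missing regions and 19.3% of regions missing from both. In the opposite direction it was 14.7%, against 9.87% of all wild-type regions and 15.7% of heterozygote-missing regions. Position and peak strength moved with the PBS shares, and their part was not tested. Near a gene end, 8.58% of acetylated knockout-missing regions had none in the knockout PBS list, and farther away 34.4% (31.3 to 37.6), against 20.7% of regions in all 3 lists and 37.1% of heterozygote-missing regions. Where the H3K27ac peak was among the weakest 25% of the wild-type PBS list, 70.5% had none in knockout, and among the strongest 25%, 4.48%. Over all wild-type regions these were 52.9% and 2.24%, and in heterozygote-missing regions 67.5% and 4.07%. IL-1 added few: 312 of 8198 knockout-missing regions without H3K27ac in wild-type PBS HPCs had it in wild-type IL-1 HPCs (3.81%), and 201 of 8253 in knockout (2.44%). These shares were 6.63% and 4.56% over all wild-type regions, and 9.09% and 6.33% in regions of all 3 lists. Heterozygote-missing regions had 3.38% and 2.02%, close to the knockout-missing shares.

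The 5 strongest knockout-missing regions with H3K27ac in wild-type PBS HPCs and none in knockout PBS HPCs lay in Rbp2, near Depdc1b, in Il21r, in Gas7 and near Sf3b2. The one in Rbp2, a retinol-binding protein (chr9:98492339-98493373), had H3K4me1 of 23.5 in wild type and 11.5 in heterozygote, H3K27ac of 6.31 in wild-type PBS and 2.44 in wild-type IL-1, and none in either knockout list. Its HSC values were 35.9 in wild type, 25.9 in heterozygote and 13.5 in knockout, all with a peak. The nearest knockout HPC H3K4me1 peak lay 47 bp from this region. The region in Il21r, the interleukin-21 receptor, had H3K27ac of 5.56 in wild-type PBS and none in the other 3 lists. The one 585 bp from Sf3b2, a splicing factor, had 4.15 in wild-type PBS and 14.5 in knockout IL-1, so it was not absent from both knockout lists.

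H3K27ac was present in both wild-type lists and absent from both knockout lists at 103 knockout-missing regions (1.05%), and the reverse held at 55 (0.558%). Heterozygote-missing regions had 63 (0.677%) and 35 (0.376%), and regions of all 3 lists 1477 (1.93%) and 516 (0.673%). These percentages are of all regions of a class, acetylated or not, so they do not compare loss among acetylated regions. Regions with H3K27ac in wild-type PBS HPCs numbered 1651 knockout-missing, 1185 heterozygote-missing and 31110 of all 3 lists. Of the 103, 15 were also in the wild-type and not the knockout H3K4me1 list of 8-week HSCs, while 17 of the 55 had that HSC pattern reversed. Heterozygote-missing regions had 4 of 63 and 11 of 35, and regions of all 3 lists 63 of 1477 and 51 of 516. The following were picked from the 15 after their values were seen, and they stand for no common theme. Stronger ones lay near Ndufa9 (wild-type −log10 p 16.8) and in Rhobtb1 (14.6). A region 1174 bp from Il18rap, a subunit of the interleukin-18 receptor (chr1:40513821-40514188), had H3K4me1 of 7.29 in wild type and 20.2 in heterozygous HPCs, and H3K27ac of 28.1 and 29.3 in the wild-type PBS and IL-1 lists. A region 12705 bp from Il1rl2, a receptor of the interleukin-1 family on the same chromosome, had H3K4me1 of 10.1 and 8.96 and H3K27ac of 3.51 and 5.19. One in Nfkb1, the p105 and p50 subunit of NF-κB (chr3:135599692-135599967), had 9.30 and 8.79, with H3K27ac of 3.98 and 5.72. One in Etv6, an ETS repressor that adult HSCs need (chr6:134090688-134090979), had 6.79 and 5.92, with 4.16 and 5.94. A knockout HPC H3K4me1 peak lay 55 bp from the region near Il18rap and 27 bp from the one in Etv6. At Etv6 the 16-week PBS HSC lists had H3K4me1 in wild type (2.09) and knockout (3.53). The heterozygous 8-week HSC list had a peak at Il18rap (8.78) and Nfkb1 (7.44) and none at Il1rl2 and Etv6.

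Many knockout-missing regions had H3K4me1 in HSCs of 8 weeks too, and more of them in the knockout list than in the wild-type list. A peak was listed at 4492 in wild type (45.6%), at 5311 in the heterozygote (53.9%) and at 5672 in knockout (57.6%), against 78.7%, 83.6% and 85.5% of regions in all 3 HPC lists. The same rise was seen over all wild-type HPC regions (66.0%, 71.7% and 74.4%) and in heterozygote-missing regions (43.3%, 52.1% and 58.1%), so it was not particular to the knockout-missing regions. These HSC lists covered 85.8, 103 and 113 Mb. Of the 4492, 846 had none in knockout HSCs (18.8%, 17.7 to 20), against 7.34% of all wild-type HPC regions, 4.51% of regions in all 3 lists, 16.7% of heterozygote-missing regions and 28.0% of regions missing from both. The difference from heterozygote-missing regions was 2.13 points (0.506 to 3.75). It was not seen in the strongest bin, with 14.3% of knockout-missing (34 of 237) and 14.9% of heterozygote-missing regions (22 of 148). In the opposite direction, 2026 of 5672 had none in wild-type HSCs (35.7%), against 17.8% of all wild-type HPC regions, 37.9% of heterozygote-missing regions and 47.7% of regions missing from both.

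Among regions found in 1 of both HSC lists, the wild-type list held 29.5% of knockout-missing and 24.7% of heterozygote-missing regions, an odds ratio of 1.27 (Woolf interval 1.13 to 1.43). It held 29.9% of regions missing from both. Against the regions of all 3 lists the odds ratio was 1.22 (1.11 to 1.34). The balance turned with the size of the lists. With wild-type and knockout HSC lists limited to equal covered bases, 46.0% of knockout-missing regions in the wild-type HSC list were absent from knockout and 25.2% the reverse, with 41.8% and 27% of heterozygote-missing regions and 17.9% and 7.07% of regions of all 3 lists. In 16-week HSCs of PBS-treated mice, 1250 of 2616 had none in knockout (47.8%) and 744 of 2110 none in wild type (35.3%), against 44.6% and 36.6% of heterozygote-missing regions. There the odds ratio against heterozygote-missing regions was 1.2 (1.06 to 1.37) and against regions of all 3 lists 0.905 (0.822 to 0.997), so the second comparison had the other sign than at 8 weeks.

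**Figure D5:**
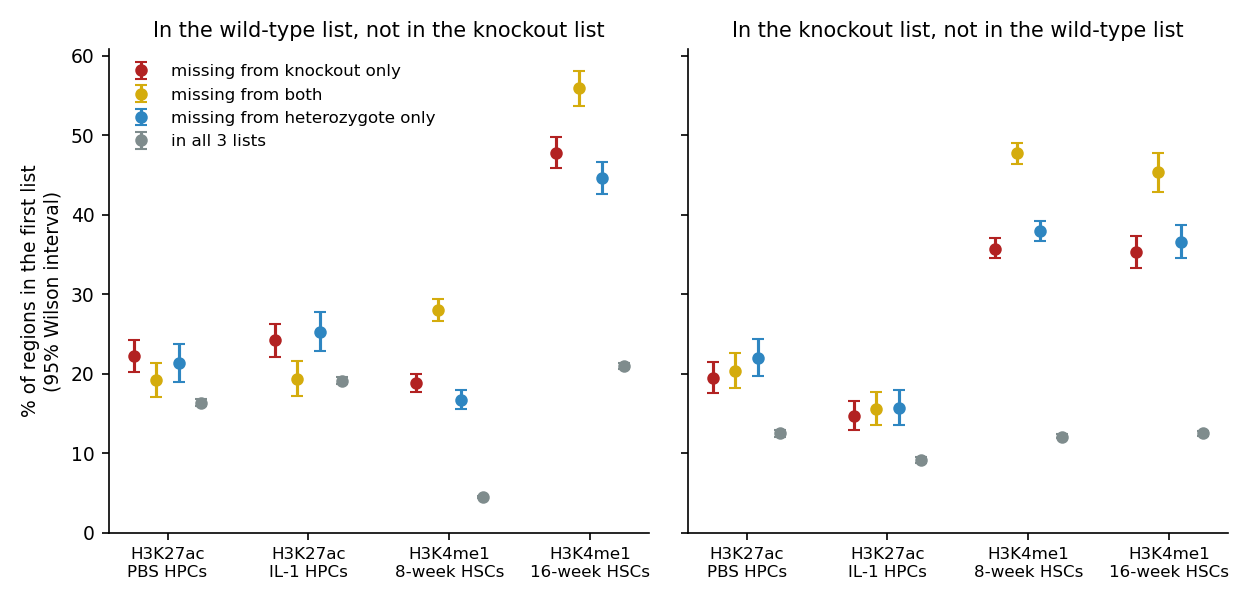
Percentage of regions with a peak in the wild-type list that had none in the knockout list (left) and the reverse (right), for H3K27ac of HPCs under PBS and IL-1 and H3K4me1 of HSCs at 8 and 16 weeks; colours are the classes of HPC H3K4me1 region and bars 95% Wilson intervals. Red (missing from the knockout list only) and blue (missing from the heterozygous list only) lie close together in all 8 places and above grey (in all 3 lists), and yellow (missing from both) is highest for HSCs in both panels.

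The H3K27ac lists of 16-week HSCs were set beside these. In wild-type PBS HSCs 21.5% of knockout-missing regions had H3K27ac, against 39.1% of regions in all 3 HPC lists and 32.3% of all wild-type regions. Heterozygote-missing regions had 16.6% (difference 4.93 points, 3.82 to 6.04) and regions missing from both 13.4%. In knockout PBS HSCs the shares were 17.6% of knockout-missing regions, 33.6% of regions in all 3 lists and 13.6% of heterozygote-missing regions. After 5FU the share in wild type was 23.1%, with 42.1% of regions in all 3 lists. Among regions acetylated in 1 of both PBS lists, 70.8% of knockout-missing regions and 70.8% of regions of all 3 lists were in the wild-type list. Of heterozygote-missing regions it was 69.3%.

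Genes nearest to knockout-missing regions were many. Of 15226 protein-coding genes nearest to a wild-type region, 5625 were nearest to at least 1 knockout-missing region, 3471 to exactly 1 and 261 to 5 or more. Nearest to 5 or more heterozygote-missing regions were 183 genes. The genes named below were picked by their number of knockout-missing regions, a choice that favours lower heterozygote-missing counts in the same genes. Genes with the most heterozygote-missing regions were not set beside them. These pairs of counts therefore do not show an excess particular to the knockout-missing class. Pde4d, a gene of 1302 kb, led with 22 of its 109 wild-type regions, against 4 heterozygote-missing ones. Trappc9, a subunit of a vesicle-tethering complex, had 13 of 73 (and 4 heterozygote-missing), Retreg1, a receptor for autophagy of the endoplasmic reticulum, 12 of 58 (3), and Ssbp2, a partner of the LIM-domain-binding proteins, 11 of 65 (5). Msi2, an RNA-binding protein of HSC renewal, had 11 of 121 (13), Etv6 11 of 115 (6), Gse1 11 of 135 (9), Adgrl2 11 of 69 (3) and Rere 11 of 106 (6). Zfp386 had 16 of 107 (13).

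By chromosome the share of wild-type regions that were knockout-missing ran from 7.98% on chromosome 7 to 10.1% on chromosome 18. Kmt2c itself (chr5:25271795-25498855) had 1 knockout-missing region among 14 within 50 kb, with 5 heterozygote-missing ones. That one lay inside the gene with −log10 p of 12.2 in wild type and 8.79 in the heterozygote. A peak list does not show whether exons were deleted, so the labels were not checked by it.

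Lists of genes were described by the share of wild-type regions within 50 kb of their members, without a test. Of 271 genes, 263 matched an autosomal protein-coding entry. Quiescence and immediate early genes had 43 of 430 regions knockout-missing (10.0%, 7.51 to 13.2) and 6.98% heterozygote-missing, with Foxo3, a factor that keeps HSCs quiescent, at 6 of 48. The strongest at Foxo3 lay 11190 bp away, with 12.8 in wild type and 14.9 in the heterozygote and no H3K27ac. Interferon response genes had 47 of 482 (9.75%, 7.41 to 12.7) and 6.85%. The strongest of these was the region at Gbp3. A region 570 bp from Usp18, which limits interferon signalling, had −log10 p of 15.4 in wild type and 16.7 in the heterozygote and had H3K27ac in all 4 HPC lists (29.3, 32.4, 25.8 and 14.7). A knockout H3K4me1 peak lay 62 bp from it.

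HSC identity genes had 85 of 1038 regions knockout-missing (8.19%, 6.67 to 10.0) and 6.84% heterozygote-missing. Hoxb5, a factor of long-term HSCs, had 7 of 33. A region in Hoxb3 (−log10 p of 16.5 in wild type and 8.71 in the heterozygote), 11407 bp from Hoxb5, had H3K27ac under IL-1 in wild type (23.5) and knockout (14.7) and in neither PBS list. Likewise a region in Irak2, a kinase of the IL-1 receptor pathway (11 in wild type, 6.12 in the heterozygote), had H3K27ac of 26.9 and 4.61 in the wild-type and knockout IL-1 lists and none under PBS. Granulocyte and monocyte genes had the lowest share, 21 of 432 (4.86%, 3.20 to 7.32), and 6.25% heterozygote-missing. Among them Fcgr3, an immunoglobulin receptor, had a region over its lower-coordinate end (14.8 and 4.33), and Cebpa, which starts granulocyte differentiation, a region 25498 bp away (13.1 and 10.8). Both had no H3K27ac.

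The remaining lists had between 7.36% (megakaryocyte and erythroid genes) and 13.0% (silent tissue genes, 13 of 100 regions, 7.76 to 21.0) knockout-missing, and between 6.28% (NF-κB and IL-1 response) and 14.0% (silent tissue genes) heterozygote-missing. Lymphoid genes had 8.39%, cell cycle genes 8.59%, antigen presentation genes 7.92%, NF-κB and IL-1 response genes 7.67%, H3K4 methylation and enhancer complex genes 8.81% and housekeeping genes 9.33%. The interval of every list but granulocyte and monocyte genes held the 8.92% of all wild-type regions. A region 2145 bp from Mcm2, a subunit of the replicative helicase, had 18.2 in wild type and 9.93 in the heterozygote, and a region in the demethylase gene Kdm5b had 16.8 and 7.17. In Kdm1a, which encodes another demethylase of H3K4, the values were 11.7 and 5.22.

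Knockout-missing regions overlapped 7 microRNA hairpins, of which 6 had mature sequences in the RefSeq table (GRCm38.p6). Mir15b and Mir16-2 lay in 1 region (chr3:69009286-69009986, nearest gene Smc4), and Mir688 in the strongest one (chr15:102671387-102671899). Their sequences are shown, 5′ to 3′, with the seed (bases 2 to 8) in capitals, because the first pair share it.
mmu-miR-15b-5p: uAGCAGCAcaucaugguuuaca
mmu-miR-16-5p: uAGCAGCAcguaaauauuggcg
mmu-miR-688: uCGCAGGCgacuacuuauuc
MicroRNAs of the miR-15 and miR-16 family restrain cell cycle and survival genes. The region at Mir15b and Mir16-2 had −log10 p of 7.68 in wild-type and 9.93 in heterozygous HPCs, a knockout peak 64 bp away and H3K27ac in the knockout PBS list alone (3.80), and it had H3K4me1 in all 3 HSC lists (6.02, 8.45 and 15.0). The region at Mir688 had 16.8 and 11.1 with H3K27ac in all 4 HPC lists (36.5, 56.4, 5.94 and 5.61) and none of the HSC lists. Both therefore overlapped a knockout peak of another mark. A knockout H3K4me1 peak lay 611 bp from the region at Mir688. The other hairpins with sequences were Mir6921, Mir8103 and Mir6941. Regions of all 3 lists overlapped 116 hairpins, heterozygote-missing regions 6 and regions missing from both 4, while 786 hairpins overlapped no wild-type region. The 7 hairpins of knockout-missing regions were thus close in number to the 6 of heterozygote-missing regions. Of all wild-type regions, 8.92% were knockout-missing and 8.42% heterozygote-missing.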

How the data were processed

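H3K4me1 and H3K27ac were profiled by ChIPmentation (chromatin immunoprecipitation with Tn5 tagging, per the labels' protocols). The tools named are Novoalign for reads and MACS2 for peaks, with mm10 (GRCm38), per the submitters' processing notes. Versions, filter and pooling of libraries were not given in the sources used here. As deposited, the authors' narrowPeak lists give each peak's fold enrichment (a ratio), −log10 p and −log10 q. Regions were ranked by these values within a list alone. Values of different lists are printed side by side as a description, and their size was not compared between lists. Depth is unknown.

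Of 69 samples, 63 belong to the 18 groups with a list, and the 6 inputs were not used. Touching peaks were merged (none of the wild-type HPC peaks did), overlap needed 1 bp, and only the 19 autosomes were used. Gene ends came from RefSeq (GRCm38.p6). Shares carry Wilson 95% intervals, differences Newcombe intervals and odds ratios Woolf intervals. The code was tested on simulated regions, in Python 3.11.15 with pandas 2.3.3. Genes were named by a rule: the 20 strongest members, the 5 strongest with H3K27ac in wild-type PBS and not knockout PBS HPCs, the 10 genes with most members, up to 3 genes of each of 12 gene lists, Kmt2c, and the regions at the edge of the rule; exceptions are named in the text or follow from sequence windows. Some genes that the rule names are not reported here. Members and lists were chosen with earlier results of these data known. The comparisons with the heterozygote-missing class and with regions missing from both lists, start site distances and the CpG split were added after seeing the data. Alternatives varied the overlap, the size of lists, the gap, the strength and the distance to gene ends.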

Additional observations from a re-analysis of the deposited data

How the results depend on the processing

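No paired analysis was possible because each group has 1 pooled list. Depth is unknown, lists differ in size, and intervals do not cover replicate error. The number of knockout-missing regions, 9849 as reported, was 11509 with an overlap of at least 50% of the shorter region, 10311 and 10362 with HPC lists of equal peak numbers and of equal covered length, and 9716 when −log10 q had to reach 2; heterozygote-missing regions then numbered 10795, 9895, 8559 and 9174, fewer in each case. It moved to 5079 with no knockout peak within 500 bp (4577 heterozygote-missing) and to 340 in the strongest 25% (260), by the construction of these settings.

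The share near a gene end, 23.1%, moved to 28.6% with no knockout peak within 500 bp, to 37.1% in the strongest 25%, to 15.1% and 47.3% with 500 bp and 5 kb, and to 17.0% with protein-coding genes only. Heterozygote-missing regions, at 21.1%, moved to 25.7% with the 500 bp gap, 26.9% in the strongest 25% and 15.4% with protein-coding genes. The share with H3K27ac, 16.8%, moved to 13.7% with 50% overlap, 17.9% with equal numbers of peaks and 39.7% in the strongest 25%. Heterozygote-missing regions, at 12.7%, had 11.1%, 13.7% and 27.3% in these settings. The share of acetylated regions with no knockout H3K27ac, 22.2%, moved to 27.3% with 50% overlap, 15.0% with the 500 bp gap and 16.6% with H3K27ac lists of equal covered bases. Heterozygote-missing regions, at 21.3%, had 31.3%, 14.1% and 15.4%, so with 50% overlap their share was the higher one. With equal numbers of peaks the shares were 22.0% of knockout-missing and 22.6% of heterozygote-missing regions. The share of wild-type HSC regions absent from knockout HSCs, 18.8%, moved to 20.8% with 50% overlap, 17.4% with equal numbers of peaks, 21.1% with the 500 bp gap, 14.3% in the strongest 25%, 47.8% with the 16-week lists and 46.0% with HSC lists of equal covered bases. Heterozygote-missing regions, at 16.7%, had 18.8%, 16.0%, 19.2%, 14.9%, 44.6% and 41.8% in the same order. Where a setting does not itself change which regions are counted, the cause was not tested.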
